A study of Mus musculus with 2 samples.

Results

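The 10 genes described here encode the enzymes that copy DNA at the replication fork. They were taken by gene symbol from the deposited tables, in which 10 of 10 were found among 23183 genes, and all 10 had a mean FPKM of at least 1. DNA polymerase alpha-primase is represented by *Pola1*, *Pola2*, *Prim1* and *Prim2*, DNA polymerase delta by *Pold1* and *Pold3*, DNA polymerase epsilon by *Pole* and *Pole2*, and the enzymes that finish Okazaki fragments by *Dna2* and *Fen1*.

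DNA polymerases cannot start a strand on their own. Polymerase alpha-primase lays down a short RNA-DNA primer, polymerase epsilon then extends the leading strand and polymerase delta the lagging strand, which is made as short Okazaki fragments. The flaps that arise where these fragments meet are cut by Fen1 or, when long, by Dna2, before a ligase seals the strand. Genes of this machinery are transcribed mainly in dividing cells around the start of S phase, and E2F factors are known regulators of many of them.

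Messenger RNA was sequenced from mouse lung cancer cells as 1 library labelled KPR- (0 h) and 1 library labelled KPRrestored (16 h). Both come from immortalized cells grown from lung tumours of KPR L/F mice without tamoxifen, which carried a *K-Ras* allele switched on by Cre, *p53* flox/flox, *Runx3* flox/FSF, a Tomato reporter and Flp ERT2, and in which an adenovirus with Cre under a *CMV* promoter had activated *K-Ras* and deleted *p53* and the floxed *Runx3* allele. The labels give the genotype as RUNX3 -/- for KPR- and RUNX3 -/+ for KPRrestored, in which Flp ERT2 removes a stop cassette from the FSF allele, and they list 1 μM 4-hydroxytamoxifen for both libraries, whereas by the study's methods this drug was what turned KPR- cells into KPRrestored cells. The comparison asks which genes differ once *Runx3* has been restored, and the number of cultures, clones or tumours behind each library is not given in the sources used here.

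With 1 library per condition, no difference below has a replicate check, and the effects of *Runx3*, of hours in culture and, if KPR- did not receive it, of 4-hydroxytamoxifen cannot be told apart. *Runx3* itself had 0.348 FPKM in KPR- and 0.349 FPKM in KPRrestored, from about 28 and 29 fragments, so its level per gene does not check the labels and each direction is that of the library labelled KPRrestored against the library labelled KPR-. The depth estimated from the steps of low values was 21.8 M and 22.4 M fragments, and the 11231 genes at a mean FPKM of 1 or more had a median log2 difference of 0.0086 (quartiles -0.23 and 0.27). Of the epithelial markers, *Epcam* (105 and 91.6 FPKM), *Cdh1* (119 and 130 FPKM), *Krt8* and *Krt18* were expressed, whereas the lung lineage markers *Sftpc* and *Sftpb* were listed at 0 in both libraries and *Nkx2-1* rested on about 3 and 1 fragments. The summed FPKM in KPR- and KPRrestored was 12.7 and 5.33 for 6 fibroblast genes, of which *Lum* was listed at 0 in both libraries and *Col1a1* alone reached 1 FPKM (12.2 and 4.21). Of the other fibroblast genes, *Dcn* had 0.173 and 0.742 FPKM (about 6 and 26 fragments) while *Pdgfra* had 0.273 and 0.363 FPKM. The sum was 1.16 and 2.22 for 4 endothelial genes, with *Tek* at 0 and *Kdr* at 1.10 and 2.05. Of the other endothelial genes, *Pecam1* had 0.060 and 0.029 FPKM (about 4 and 2 fragments). *Cdh5* had 0 and 0.141 FPKM (about 0 and 12 fragments). Of the immune markers, *Cd68* had 3.08 and 6.78 FPKM, whereas *Cd3e* and *Lyz2* were listed at 0 in both libraries. The part of such cells in the differences below was not tested.

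All 10 genes were lower in the library labelled KPRrestored. Differences are given as log2(FPKM + 0.005) in KPRrestored minus KPR-, where FPKM is the number of fragments scaled to transcript length and depth. They ran from -1.35 for *Dna2* to -0.16 for *Prim1*, with a median of -0.39. In bulk RNA, fewer cells in S phase and less RNA per cell cannot be told apart. The 10 genes were chosen with earlier results of these data known, so the counts in this paragraph only describe them. The other subunits of polymerases delta and epsilon, given below, differed in direction. Below 0 lay 10 of the 10 genes, against 49.0% of those 11231 genes. A difference of -0.5 or less was found for 4 genes, *Dna2*, *Pola1*, *Pole* and *Pole2*, against 9.29% of the 11231 genes, and 0 of the 10 genes were higher by as much, against 12.1%. A difference of -1 or less was found for 2 genes, *Dna2* and *Pola1*, against 1.38% of all. The 95% counting interval lay below 0 for 10 of the 10 genes, against 29.8% of the 13447 genes with at least 10 estimated fragments. This interval is an exact Clopper-Pearson interval on the estimated fragments of the 2 libraries and covers counting error only. It is wider for genes with few fragments. The 13447 genes include such genes, whereas each of the 10 genes had about 229 or more fragments in each library.

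**Figure D1:**
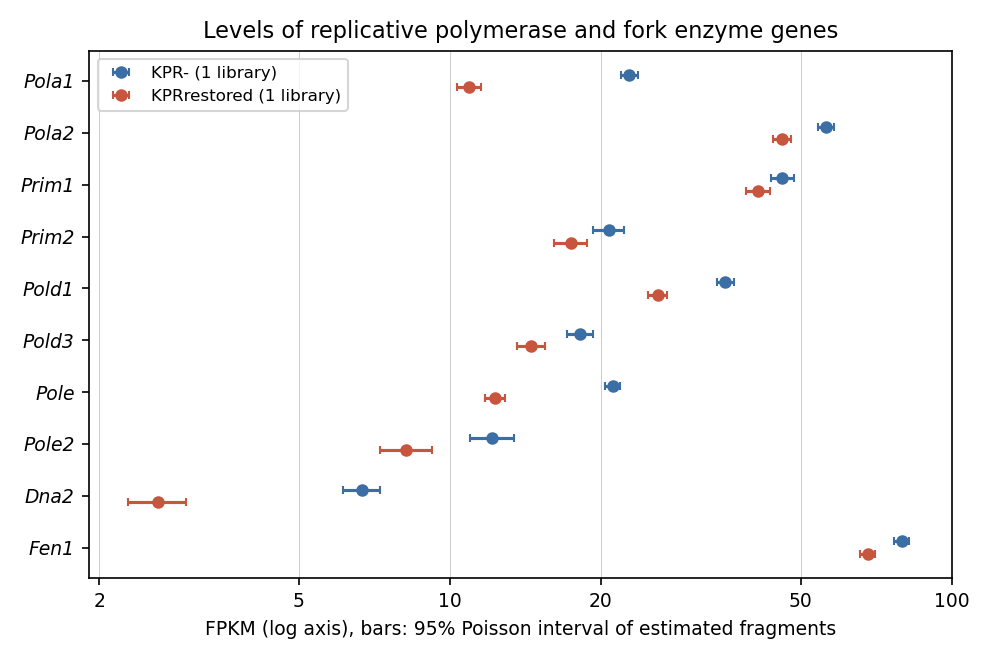
FPKM of the 10 genes in the KPR- library (blue) and the KPRrestored library (red) on a log axis, with 95% Poisson intervals of the estimated fragments as bars. Each red point lies left of its blue point, with the widest gap at *Dna2* (6.67 and 2.62 FPKM) and the narrowest at *Prim1* (46.0 and 41.2 FPKM).

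In polymerase alpha-primase, the catalytic subunit stood apart from the other subunits. *Pola1*, which encodes the subunit that extends the RNA primer with DNA, lies on chromosome X of GRCm38 from 93304767 to 93632155 (minus strand), with 37 exons in its 5346-base transcript. It had 22.8 FPKM in KPR- (95% Poisson interval 21.9 to 23.7) and 10.9 FPKM in KPRrestored (10.3 to 11.5), from about 2549 and 1257 fragments. The KPRrestored level was 48.0% of that in KPR-, a log2 difference of -1.06 (counting interval -1.16 to -0.96). Of the 11231 genes, 135 (1.20%) had a lower difference.

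*Pola2*, which encodes the accessory subunit that tethers the catalytic subunit to primase, lies on chromosome 19 from 5940542 to 5964202 (minus strand). It had 56.2 FPKM in KPR- (54.1 to 58.3) and 45.9 FPKM in KPRrestored (44.1 to 47.9), a log2 difference of -0.29 (counting interval -0.37 to -0.21). *Prim1*, which encodes the catalytic primase subunit, lies on chromosome 10 from 128015168 to 128030037 (plus strand). Its level was 46.0 FPKM in KPR- (43.6 to 48.5) and 41.2 FPKM in KPRrestored (38.9 to 43.5). This was the smallest difference of the 10 genes, -0.16 (counting interval -0.27 to -0.048), and 31.6% of the 11231 genes had a lower one. *Prim2*, which encodes the large primase subunit, lies on chromosome 1 from 33453810 to 33669795 (minus strand). It had 20.7 FPKM in KPR- (19.3 to 22.2) and 17.4 FPKM in KPRrestored (16.2 to 18.8), a log2 difference of -0.25 (counting interval -0.40 to -0.098). The differences of *Pola2*, *Prim1* and *Prim2* overlapped within their counting intervals, and that of *Pola1* overlapped with none of them.

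For polymerase delta, both genes lie on chromosome 7 (minus strand). *Pold1*, which encodes the catalytic subunit with its proofreading exonuclease, spans 44532746 to 44548849. It had 35.4 FPKM in KPR- (34.0 to 36.8) and 25.9 FPKM in KPRrestored (24.8 to 27.1), a log2 difference of -0.45 (counting interval -0.54 to -0.36). *Pold3*, which encodes an accessory subunit that binds the sliding clamp, spans 100082111 to 100121565. It had 18.2 FPKM in KPR- (17.1 to 19.3) and 14.5 FPKM in KPRrestored (13.6 to 15.5), a log2 difference of -0.33 (counting interval -0.45 to -0.20). Neither gene passed -0.5, although the interval of *Pold1* reaches across it, and the intervals of both genes overlapped.

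The polymerase epsilon genes were both past the threshold. *Pole*, which encodes the catalytic and proofreading subunit, lies on chromosome 5 from 110286306 to 110337474 (plus strand), with 49 exons in its 7163-base transcript. It had 21.1 FPKM in KPR- (20.4 to 21.9) and 12.3 FPKM in KPRrestored (11.8 to 12.9), a level of 58.2% and a log2 difference of -0.78 (counting interval -0.86 to -0.70). *Pole2*, which encodes the accessory B subunit, lies on chromosome 12 from 69201773 to 69228195 (minus strand). It had 12.1 FPKM in KPR- (11.0 to 13.4) and 8.17 FPKM in KPRrestored (7.24 to 9.21), a log2 difference of -0.57. Its counting interval of -0.80 to -0.34 rested on about 396 and 274 fragments and reaches across the threshold of -0.5.

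The enzymes of Okazaki fragment maturation lay far apart. *Dna2*, which encodes a nuclease and helicase that also resects broken DNA ends, lies on chromosome 10 from 62947026 to 62974185 (plus strand). It had the lowest level of the 10 genes in both libraries, 6.67 FPKM in KPR- (6.14 to 7.25) and 2.62 FPKM in KPRrestored (2.29 to 2.98), from about 569 and 229 fragments. The KPRrestored level was 39.3% of that in KPR-, a log2 difference of -1.35 (counting interval -1.58 to -1.13), and 67 of the 11231 genes (0.597%) had a lower difference. *Fen1*, which encodes the flap endonuclease, lies on chromosome 19 from 10199132 to 10204169 (minus strand), with 2 exons in the 2152-base transcript used. It had the highest level in both libraries, 79.5 FPKM in KPR- (76.9 to 82.3) and 68.0 FPKM in KPRrestored (65.5 to 70.5), a log2 difference of -0.23 (counting interval -0.30 to -0.15). *Fen1* overlaps *Tmem258* on the other strand, which had 238 and 225 FPKM, and whether the fragments were assigned by strand is not given in the sources used here.

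**Figure D2:**
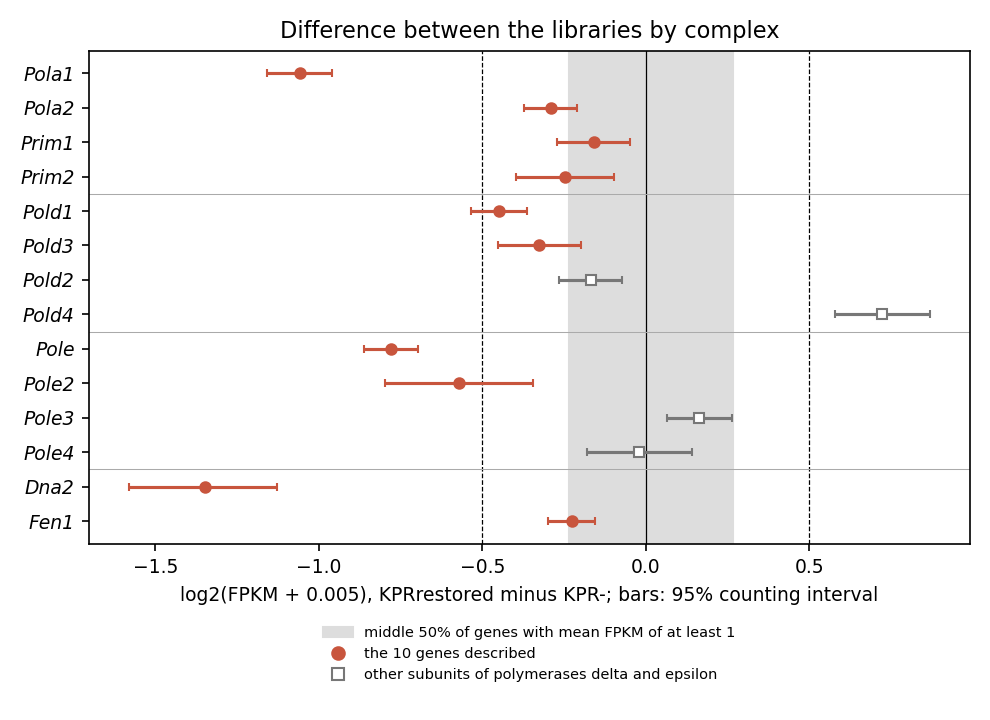
Log2 difference between the libraries for the 10 genes (red circles) and the other subunits of polymerases delta and epsilon (grey squares), with 95% counting intervals as bars, dashed lines at 0.5 either way and the middle 50% of all genes at 1 FPKM or more as a grey band. *Dna2*, *Pola1*, *Pole* and *Pole2* lie left of the dashed line at -0.5, and *Pold4* (0.72) lies right of that at 0.5.

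In the order of levels, *Dna2* and *Pole2* were lowest and *Prim1*, *Pola2* and *Fen1* highest in both libraries. Of the 9 pairs of neighbours in this order, 1 pair in KPR- (*Prim2* and *Pole*) and 0 pairs in KPRrestored had overlapping Poisson intervals. *Pola1* stood above *Pold3* and *Prim2* in KPR- and below both in KPRrestored, as did *Pole*, which in KPR- overlapped with *Prim2*. The highest level was 11.9 times the lowest in KPR- and 25.9 times the lowest in KPRrestored. In the order of differences, 8 of the 9 pairs of neighbours overlapped, and the counting intervals separated *Dna2* and *Pola1* from the remaining genes.

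Among the 10 genes, the balance between partners differed most between the libraries for *Pola1* against its complex and for *Dna2* against *Fen1*. The FPKM of *Pola2* was 2.47 times that of *Pola1* in KPR- and 4.20 times in KPRrestored, a log2 change of the ratio of 0.77 (95% counting interval 0.64 to 0.90). The ratio of *Prim1* to *Pola1* went from 2.02 to 3.77, a change of 0.90 (0.75 to 1.05), and that of *Prim2* to *Pola1* from 0.910 to 1.59, a change of 0.81 (0.63 to 0.99). *Pola1*, above *Prim2* in KPR-, thus had the lowest level of the complex in KPRrestored. The ratio of the primase genes to each other, *Prim1* to *Prim2*, was 2.22 and 2.36, and its change of 0.089 had an interval of -0.099 to 0.27.

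The ratio of *Pold3* to *Pold1* was 0.513 in KPR- and 0.559 in KPRrestored, with an interval of the change of -0.031 to 0.28. For *Pole2* to *Pole* it was 0.575 and 0.664, with an interval of -0.033 to 0.45. Both intervals include 0. The ratio of *Fen1* to *Dna2* was 11.9 in KPR- and 25.9 in KPRrestored, a change of 1.12 (0.89 to 1.36). Between the catalytic subunits, *Pold1* had 1.68 times the level of *Pole* in KPR- and 2.11 times in KPRrestored, a change of 0.33 (0.21 to 0.45). None of the ratios or their intervals was adjusted for the trend of the differences with transcript length, which is described below.

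**Figure D3:**
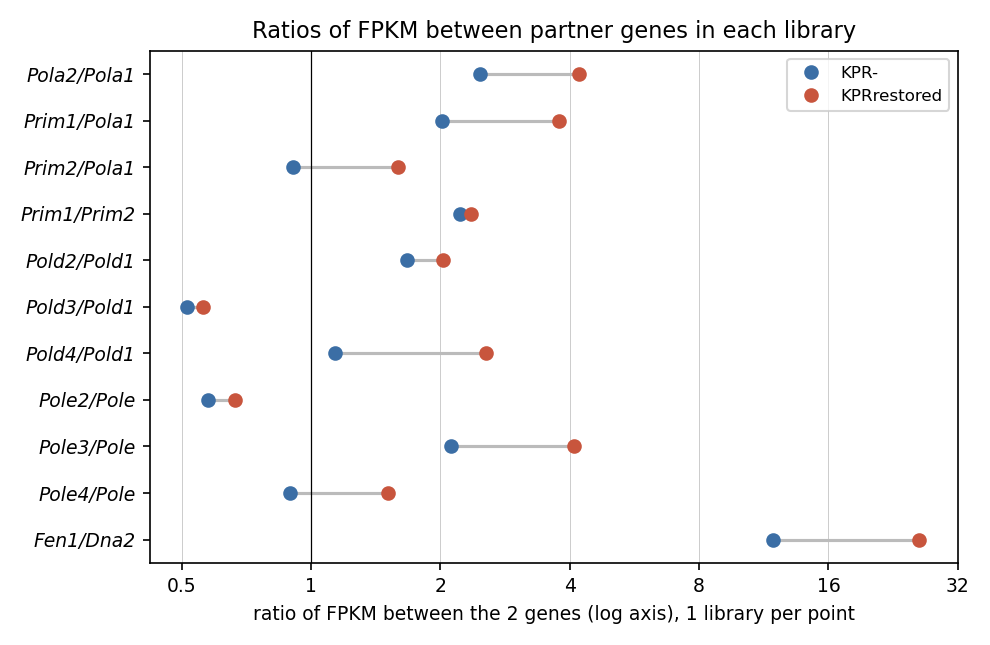
Ratio of FPKM between partner genes in the KPR- library (blue) and the KPRrestored library (red) on a log axis, 1 library per point. The ratios to *Pola1* and that of *Fen1* to *Dna2* lie further right in KPRrestored. So do those of *Pold2* (1.67 and 2.03) and *Pold4* to *Pold1* and those of *Pole3* and *Pole4* to *Pole*. The ratios of *Pold3* to *Pold1* and *Pole2* to *Pole* lie slightly further right, whereas the points of *Prim1* to *Prim2* (2.22 and 2.36) nearly coincide.

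The remaining subunits of polymerases delta and epsilon, *Pold2*, *Pold4*, *Pole3* and *Pole4*, differed in direction, and the counting interval lay below 0 for *Pold2* and above 0 for *Pold4* and *Pole3*. Of these 4 genes, 0 were lower and 1 was higher by 0.5 or more, with a median of 0.072. *Pold4*, which encodes the smallest subunit of polymerase delta, had 40.2 FPKM in KPR- and 66.4 FPKM in KPRrestored, a log2 difference of 0.72 (0.58 to 0.87). *Pold2*, which encodes the accessory B subunit, had 59.2 and 52.7 FPKM, a difference of -0.17 (-0.27 to -0.074). *Pole3* and *Pole4* encode histone-fold subunits. *Pole3* had 44.8 and 50.2 FPKM, a difference of 0.16 (0.065 to 0.26), and *Pole4* had 18.9 and 18.6 FPKM, a difference of -0.020 (-0.18 to 0.14). The highest level within polymerase epsilon was 3.69 times the lowest in KPR- and 6.15 times the lowest in KPRrestored, where *Pole3* and *Pole2* were the ends of the range in both libraries.

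The promoters are shown for *Pola1* and *Dna2*, the pair with the lowest differences, because one holds several of the motifs searched and the other none. Windows from 250 bases before to 50 after the RefSeq start (GRCm38.p6) were at hand for 8 of the 10 genes, all but *Prim2* and *Pole*. They were searched on both strands for E2F-type letters (TTTCCCGC, TTTGGCGC, TTTCGCGC or TTTGCCGC), RUNX-type letters (TGTGGT and likewise TGCGGT), the box with the letters CCAAT, the GC box GGGCGG and the CHR letters TTTGAA. The 250 bases before the start follow 5′ to 3′ on the strand of the gene, with matches in capitals. In *Pola1* (chrX:93632156-93632405, minus strand) these are an E2F-type match whose first letter is 138 bases before the start, a GC box at 108 and at 68 bases, and a reversed CCAAT box at 37 bases. In *Dna2* (chr10:62946779-62947028, plus strand) 0 matches were found.
*Pola1*: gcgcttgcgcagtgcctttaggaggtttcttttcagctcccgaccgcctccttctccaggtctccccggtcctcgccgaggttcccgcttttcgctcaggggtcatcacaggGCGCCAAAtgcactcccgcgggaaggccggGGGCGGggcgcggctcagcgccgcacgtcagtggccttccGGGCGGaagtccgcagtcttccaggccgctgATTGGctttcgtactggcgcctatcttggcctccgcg
*Dna2*: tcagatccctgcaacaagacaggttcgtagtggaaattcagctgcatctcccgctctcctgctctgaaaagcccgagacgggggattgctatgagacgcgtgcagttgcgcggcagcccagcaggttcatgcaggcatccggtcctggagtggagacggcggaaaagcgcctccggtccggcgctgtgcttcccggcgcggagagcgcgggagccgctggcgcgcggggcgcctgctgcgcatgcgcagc

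E2F-type letters were found in 4 of the 8 genes, *Pola1*, *Pold1*, *Pold3* and *Pole2*, against 2.26% of all 32851 windows in the RefSeq table (744 windows). The 9 windows of the 8 genes had a median GC content of 61.3%, against 52.7% for all windows and 61.3% for windows of genes at 1 FPKM or more. Of those 11231 genes, 8594 had a window, and 4.88% of the 8594 held E2F-type letters. In *Pold1*, *Pold3* and *Pole2* the match lies after the start, at 39, 17 and 10 bases, and is shown in capitals within at most 30 bases on the strand of the gene (chr7:44548766-44548787, chr7:100121467-100121496 and chr12:69228162-69228191, each on the minus strand).
*Pold1*: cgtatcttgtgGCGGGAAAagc
*Pold3*: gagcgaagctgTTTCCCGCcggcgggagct
*Pole2*: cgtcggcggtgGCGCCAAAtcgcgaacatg

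The genes with E2F-type letters had differences from -1.06 (*Pola1*) to -0.33 (*Pold3*), and of the 4 genes without them *Dna2* was at -1.35 and *Pola2*, *Fen1* and *Prim1* were between -0.29 and -0.16. *Pole* (-0.78) and *Prim2* (-0.25) had no window, and a link between letters and differences was not tested. RUNX-type letters were found in 2 of the 8 genes, *Pold1* at 178 bases and *Pold3* at 185 bases before the start, against 22.4% of all windows and 24.0% of the 8594 genes. They are shown in capitals within 30 bases (chr7:44548976-44549005 and chr7:100121670-100121699, minus strand), since *Runx3* is the gene restored.
*Pold1*: gggcgctcggggACCGCAggccaaacccct
*Pold3*: agtcagtctactTGTGGTagcagagaaatc

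GC boxes were found in 5 of the 8 genes, against 35.7% of all windows and 71.7% of the 8594 genes at 1 FPKM or more with a window. CCAAT was found in 2 genes (37.4% and 43.3%) and CHR letters in 1, *Fen1* (17.9% and 13.7%). No match overlapped with another. A match is a description of letters, and binding was not measured.

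Among the 10 genes, the lowest differences belonged to the longest transcripts. The 3 longest, those of *Pole* (7163 bases), *Pola1* (5346 bases) and *Dna2* (4122 bases), were at -0.78, -1.06 and -1.35. Across the 10 genes, Pearson's r between log2 transcript length and the difference was -0.70 and Spearman's rho was -0.76, and between log2 mean FPKM and the difference they were 0.77 and 0.76. The 10 points share the same libraries, and length and level both enter FPKM. The mean FPKM is also made from the same values as the difference, so these measures are not independent. Over 11180 genes with a length and a mean FPKM of at least 1, r was -0.071 and rho was -0.21 for length. The median difference was 0.085 for the 2311 genes with transcripts over 1000 and up to 2000 bases, and -0.14 for the 853 genes over 6000 and up to 8000 bases.

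Relative to the lowess trend over all genes, the 10 genes lay below the value at their length in each case. *Dna2* was at -1.33 relative to the trend, *Pola1* at -0.97, *Pole2* at -0.66, *Pole* at -0.62 and *Prim1* at -0.25. With the trend removed, 4 of the 10 genes were again lower by 0.5 or more, all 4 shared with those before, and the median was -0.41. The part of RNA quality or coverage along the transcript was not tested.

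**Figure D4:**
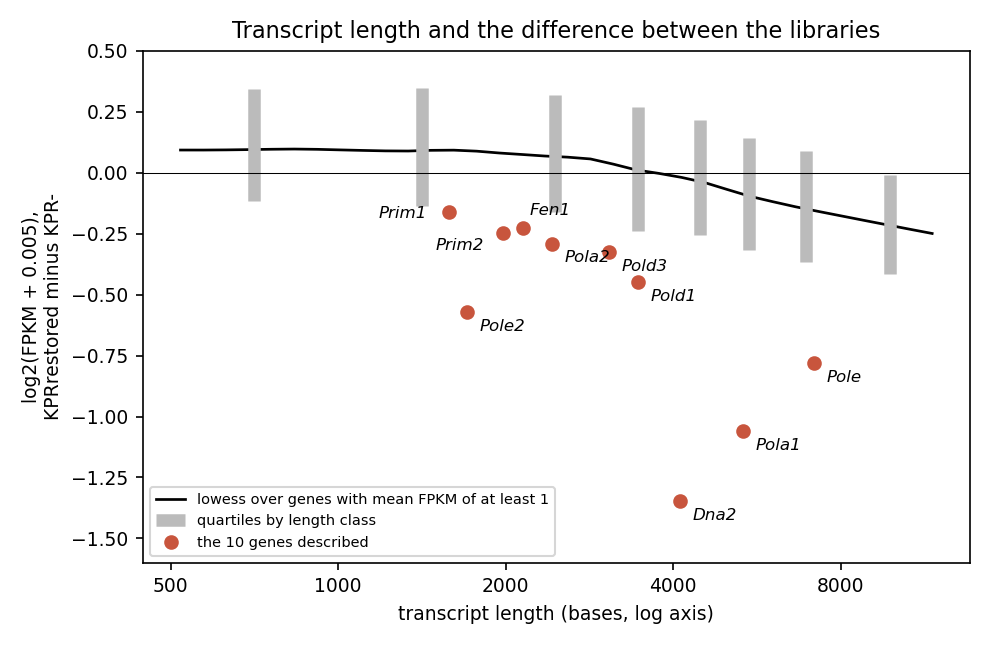
Log2 difference between the libraries against transcript length (log axis) for the 10 genes (red), with the lowess line over all genes at a mean of 1 FPKM or more and grey bars from the lower to the upper quartile in 8 length classes. The line runs from above 0 for short transcripts to below 0 for long ones, and the 10 genes lie below it, with *Dna2* (-1.35) lowest.

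Other genes of the fork were described by their counts past 0.5 and their medians, beside a median of 0.0086 and shares of 9.29% lower and 12.1% higher over the 11231 genes. Of 15 genes of the clamp, clamp loaders, ligase and RNase H, 3 were lower and 0 were higher, with a median of -0.14. *Pcna*, which encodes the clamp that holds polymerase delta on DNA, had 313 and 292 FPKM, a difference of -0.10, and *Lig1*, which encodes the ligase that seals Okazaki fragments, had 75.8 and 53.9 FPKM, a difference of -0.49 (-0.56 to -0.43). *Atad5*, needed to unload the clamp, had the lowest difference of this list (-0.85) and *Rnaseh2a*, the catalytic subunit of RNase H2, the highest (0.19). Of 15 genes of single-strand binding and fork factors, 3 were lower and 0 were higher, with a median of -0.36. They ran from -0.82 for *Wdhd1*, whose product links polymerase alpha to the helicase, to 0.10 for *Gins4*, a helicase cofactor.

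Of the 6 genes of the MCM2-7 helicase, which unwinds DNA ahead of the polymerases, 5 were lower by 0.5 or more, with a median of -0.57 and a range from -0.92 (*Mcm6*) to -0.16 (*Mcm7*). Of 40 S phase genes chosen without the 10 genes, 20 were lower and 0 were higher, with a median of -0.48, and *Ccne2*, which encodes cyclin E2, was lowest at -1.22. This list shares 5 genes with the helicase list, 3 with the clamp list and 5 with the fork factors. Of 52 genes of G2 and M phase, 13 were lower and 0 were higher, with a median of -0.31 and a range from -0.75 (*Mki67*, a proliferation marker) to 0.32 (*Ndc80*, a kinetochore gene). The 20 reference genes had a median of 0.0087, with 0 lower and 0 higher, and ran from -0.43 (*Gusb*) to 0.20 (*Rab7*). Their counting interval lay below 0 for 9 genes and above 0 for 9 genes, so an interval without 0 was common among them too.

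**Figure D5:**
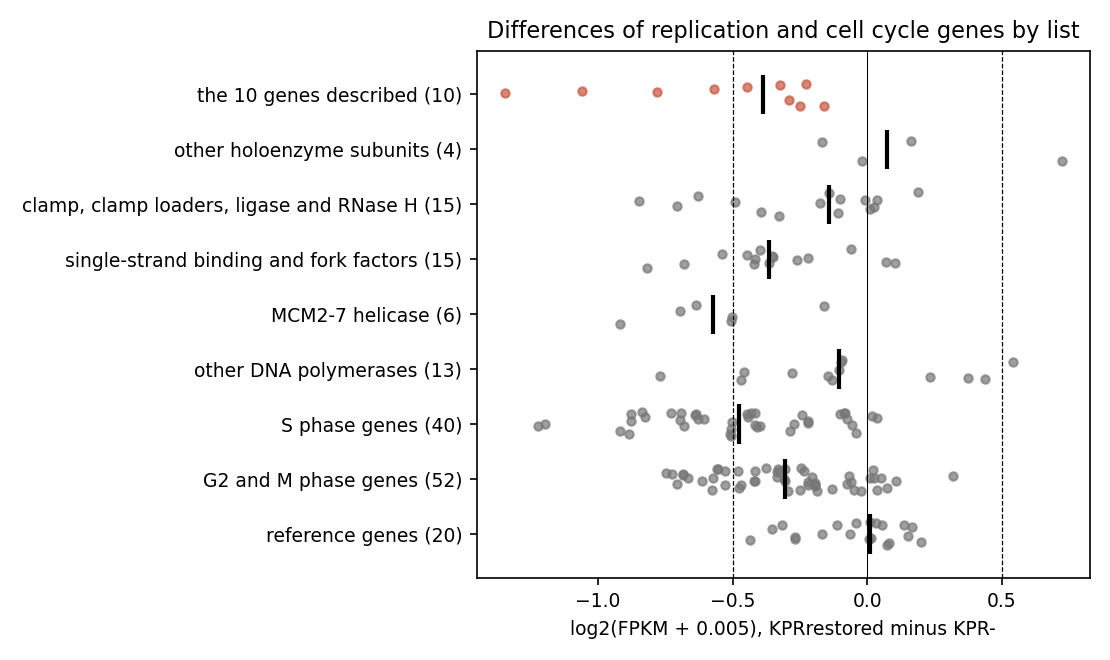
Log2 difference of each gene with a mean FPKM of at least 1 in 9 lists (number of genes in brackets), with the median of each list as a black bar and dashed lines at 0.5 either way. The 10 genes described (red, median -0.39) lie below 0, as do the 6 MCM2-7 genes, whereas the reference genes spread on both sides of 0.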

How the data were processed

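RNA of 2 libraries, 1 of KPR- and 1 of KPRrestored cells, was poly(A)-selected, made into directional libraries and sequenced as paired ends. The authors trimmed the reads, mapped them using TopHat (mm10, per the submitters' processing notes) and deposited FPKM values estimated using Cufflinks, 1 value per gene and library; versions and the annotation are not given in the sources used here. Libraries were grouped by the labels.

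Differences were log2(FPKM + 0.005), KPRrestored minus KPR-, the scale of the study's table, called at 0.5 either way. The scale understates changes of genes near the pseudocount. Low FPKM values fall on steps of whole fragments. With transcript lengths from GENCODE M21 (GRCm38) and 4255 genes of a single transcript over 500 bases, these gave 21.8 M and 22.4 M fragments and a mean fragment length of 212 bases. Of 595 and 606 low values, 77.8% and 79.7% lay within 0.1 of a whole number. Fragments per gene were estimated with the longest transcript that has a RefSeq counterpart and rounded. Intervals (95%, exact Clopper-Pearson between libraries, Poisson within one, exact conditional odds ratio for ratios) cover counting error only, and no test between the conditions was possible. The estimates were tested on simulated data with 1 known transcript length per gene and counting error only. Such data cannot check the choice of transcript or the variation between cultures. Of the gene symbols, 22148 matched GENCODE directly and 679 by an older symbol.

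The members and gene lists were chosen with earlier results of these data known. The genes named are the 10 members, the remaining subunits of polymerases delta and epsilon, *Pcna*, *Lig1*, *Runx3*, the markers and the lowest and highest gene of each other list; *Tmem258* was added after its values were seen. The summed level of the immune markers is not reported here. Alternatives were pseudocounts of 0.1 and 1, scaling to the same FPKM total or upper quartile, centring on the median gene, removal of the length trend (lowess, share 0.3), filters on mean FPKM, a threshold of 1 and shorter transcripts. Scripts ran under Python 3.11.15 with scipy 1.17.1, statsmodels 0.14.6, pandas 2.3.3, numpy 2.4.6 and matplotlib 3.10.9.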

Additional observations from a re-analysis of the deposited data

How the results depend on the processing

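Under pseudocounts of 0.1 and 1, scaling to a shared upper quartile or a shared FPKM total, a median gene set to 0 and removal of the length trend, 4 of the 10 genes were lower by 0.5 or more, all 4 shared with those reported, and the median of the 10 genes ran from -0.41 to -0.37. With a threshold of 1, 2 of the 10 genes and 1.38% of all genes were lower. Of 60 values of single genes under these 6 settings, 60 were below 0 and 3 left their counting interval: *Dna2* at -1.08 with a pseudocount of 1, and *Pole* at -0.62 and *Fen1* at -0.30 with the length trend removed. The count of 60 is no check of direction, since a pseudocount cannot change the sign of a difference. Scaling to a shared FPKM total, a shared upper quartile or the median gene shifted the median gene by -0.0064, -0.022 and -0.0086. The smallest difference of the 10 genes was -0.16 (*Prim1*), and the length trend at their lengths ran from -0.16 (*Pole*) to 0.093 (*Prim1*). The share of all genes lower by 0.5 or more was 12.9% with no filter on low values, 7.32% with a mean FPKM of at least 5 and 6.78% with a pseudocount of 1. With the shortest coding transcript in place of the longest, the counting interval lay below 0 for 10 of the 10 genes. This choice scales the estimated fragments of both libraries alike. It therefore alters the width of an interval, not the difference, and cannot check the choice of transcript. For *Pola1*, *Prim2* and *Dna2* the shortest coding transcript had the length already used. With a single library per condition, the variation between cultures is unknown.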

Other observations

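The DNA polymerases other than alpha, delta and epsilon did not move together. Of 15 genes for repair, translesion and mitochondrial polymerases and their partners, 13 had a mean FPKM of at least 1, of which 1 was lower (9.29% of all genes at that level) and 1 was higher (12.1% of all) by 0.5 or more in the library labelled KPRrestored, with a median log2 difference of -0.11. *Polq*, which encodes the polymerase of theta-mediated end joining, had 3.55 FPKM in KPR- and 2.08 FPKM in KPRrestored, a difference of -0.77 (95% counting interval -0.96 to -0.59). *Polb*, which encodes the polymerase of base excision repair, had 12.6 and 18.2 FPKM, a difference of 0.54 (0.31 to 0.77). *Dntt* and *Poln* had a mean FPKM under 1.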
